A study of Mus musculus with 8 samples.

Results

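Collagens are trimeric proteins of the extracellular matrix, here followed at the level of their messenger RNAs in mouse brain. The collagen genes were all protein-coding rows of the count table whose symbol is Col, a number, the letter a and a number. Of 44 such rows among 54532 genes, 41 had at least 10 counts in 2 or more of the 8 libraries and are the members described. They comprised 11 fibrillar collagens, 5 chains of type IV collagen (Col4) and 25 collagens of other types. The 3 rows below the limit were Col4a3, Col28a1 and Col6a5. Just inside it stood Col6a6, with 11 and 13 counts in its 2 highest libraries. Each of the 3 outside had 10 or more counts in 1 library only: Col4a3 reached 10 counts, Col28a1 11 counts and Col6a5 23 counts in its highest library. Col17a1 and Col7a1 met the limit through stress libraries alone and Col6a6 through WT libraries alone, so the rule itself favours a difference there.

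The libraries came from PBS-perfused brains in 4 groups of 2. These were CAA mice under chronic restraint stress (CAA stress), mock-treated CAA mice (CAA mock), wild-type mice under chronic restraint stress (WT stress) and mock-treated wild-type mice (WT mock). CAA stands for cerebral amyloid angiopathy, the deposition of amyloid-beta in the walls of brain vessels. The comparisons address how chronic stress acts in CAA. The sources used here give neither the strain or transgene behind the CAA label, nor age, sex, litter or the brain region taken. Nor do they state that replicate numbers stand for separate animals, so a p-value here covers only the spread between libraries. In whole-tissue RNA, fewer cells of a type and less RNA per cell cannot be told apart.

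Libraries held 17275201 to 18894657 gene counts. The tissue markers Snap25 of neurons (1667 to 2505 CPM, counts scaled to the same library size), Gfap of astrocytes (162 to 676 CPM) and Mbp of myelin (2782 to 8187 CPM) were present in all 8. Replicates differed in tissue content. Striatal markers summed to 102 CPM in CAA mock 2 and 123 CPM in WT mock 1, against 465 to 873 CPM in the other 6 libraries. Choroid plexus markers summed to 423 CPM in CAA stress 1 and 515 CPM in WT stress 2, against 12.5 to 192 CPM elsewhere. Olfactory bulb markers summed to 43.7 CPM in CAA stress 2 and 6.7 to 10.6 CPM in the other CAA libraries, against 5 CPM in WT mock 1 and 54.6 to 61.7 CPM in the other WT libraries. CAA stress 1 and WT mock 1 were female by Xist in an earlier analysis of these data. Each collagen result was also computed without the striatal, the choroid plexus and the female pair of libraries. The choroid plexus and female pairs both hold CAA stress 1, so CAA stress 2 is then alone in its group.

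Fibrillar collagens form the banded fibrils of connective tissue, which in brain are found mainly in the meninges and around larger vessels. Type IV collagen forms the network of vascular and pial basement membranes, made by endothelial and mural cells, and its commonest trimer joins Col4a1 and Col4a2 chains. In humans, mutations of these genes cause disease of small cerebral vessels with haemorrhage. Other types coat fibrils (types IX, XII, XIV and XVI), make beaded filaments (type VI), or cross the plasma membrane (types XIII, XVII, XXIII and XXV). The type XXV protein, product of Col25a1, was purified from amyloid plaques.

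RefSeq gave a promoter window for 33 of the 41 members, and the windows below are those of the members on which the results turn. They belong to Col11a2 and Col9a2, the collagens of smallest p for CAA over WT under stress, and to Col1a2 and Col3a1, fibrillar chains whose highest libraries differed. Each window of 250 bases ends at the RefSeq start. Only its longest part that lies in no annotated exon is printed, 5′ to 3′ on the coding strand. The printed part stops 181 bases short of the start for Col9a2 and 125 bases short of it for Col1a2. Capitals mark a GC box (GGGCGG or CCGCCC) or a TATA box (TATAAA or TTTATA) found on either strand.
Col11a2, chr17:34038888-34039137, plus strand: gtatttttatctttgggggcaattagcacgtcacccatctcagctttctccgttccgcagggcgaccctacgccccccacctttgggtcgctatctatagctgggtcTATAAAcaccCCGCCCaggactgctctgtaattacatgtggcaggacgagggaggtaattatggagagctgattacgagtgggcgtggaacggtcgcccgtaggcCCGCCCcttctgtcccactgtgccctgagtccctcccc
Col9a2, chr4:121039316-121039384, plus strand: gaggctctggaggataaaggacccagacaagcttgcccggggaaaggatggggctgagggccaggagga
Col1a2, chr6:4505370-4505492, plus strand: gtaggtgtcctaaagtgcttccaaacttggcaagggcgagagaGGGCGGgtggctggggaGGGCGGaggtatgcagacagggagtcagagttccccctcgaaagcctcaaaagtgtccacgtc
Col3a1, chr1:45311288-45311537, plus strand: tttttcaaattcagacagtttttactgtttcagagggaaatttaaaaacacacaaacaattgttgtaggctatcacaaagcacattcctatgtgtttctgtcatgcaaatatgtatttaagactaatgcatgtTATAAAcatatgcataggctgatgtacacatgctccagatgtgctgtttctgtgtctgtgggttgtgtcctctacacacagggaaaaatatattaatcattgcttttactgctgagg
Coordinates are those of GRCm38.p6, the assembly that mm10 denotes. In the printed parts Col11a2 held 2 GC boxes and 1 TATA box, Col1a2 held 2 GC boxes and Col3a1 held 1 TATA box. The short Col9a2 stretch held none. Among all 38 collagen windows of 250 bases before a start, 57.9% held a GC box, against 32.7% of 32851 windows of the same length. The 38 include Col28a1 and Col6a5, which are not members, and 2 windows each of Col6a2, Col18a1 and Col9a1. A TATA box stood in 13.2% of collagen windows and in 12.4% of all windows. A CCAAT box (CCAAT or ATTGG) stood in 34.2% of collagen windows and in 33.9% of all windows. These matches describe letters and do not show that a factor binds. Col4a1 and Col4a2 start head to head on chromosome 8, and their first exons share 22 bases, so no exon-free window was printed for them.

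Levels between genes are compared in the deposited FPKM, which corrects for gene length. Collagen RNA was scarce: 10 members averaged at least 1 FPKM over the 8 libraries, 24 lay between 0.1 and 1 FPKM, and 7 lay under 0.1 FPKM. Col4a2 led with 3.82 ± 1.23 FPKM (SD, n = 8), then Col6a1, a chain of the type VI beaded filament, with 3.74 ± 2.45 FPKM, and Col25a1 with 3.59 ± 0.54 FPKM. Col4a1 followed with 2.77 ± 0.69 FPKM. The SDs of these 4 overlap, so their order is not firm. Col9a3 and Col9a2, of the fibril-coating type IX, averaged 2.01 ± 0.41 and 1.87 ± 0.63 FPKM. The fibrillar genes were lower, with Col11a2 at 1.38 ± 0.48, Col1a1 at 1.23 ± 1.25 and Col1a2 at 1.13 ± 0.69 FPKM. By class, the 5 Col4 genes made up 19.7% to 26.4% of the summed collagen FPKM of a library, the 11 fibrillar genes 13.0% to 22.3% and the 25 others 56.3% to 66.5%.

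A single library stood apart from the other 7. CAA stress 2 held the highest CPM of 24 of the 41 collagens (58.5%), against 18.0% of all 17182 genes tested. Its 41 collagens summed to 410 CPM, against 263 CPM in CAA stress 1, 193 CPM in CAA mock 1, 219 CPM in CAA mock 2 and 192 to 227 CPM in the 4 WT libraries. The excess was widest for fibrillar genes, which summed to 110 CPM in CAA stress 2 and 56.3 CPM in CAA stress 1, against 33.9 and 54.9 CPM in CAA mock and 33.4 to 46.8 CPM in WT. Col4 genes summed to 83.8 CPM in CAA stress 2 and 57.4 CPM in CAA stress 1, against 41.8 and 48.7 CPM in CAA mock and 40.3 to 50.5 CPM in WT. The other types summed to 216 CPM in CAA stress 2 and 149 CPM in CAA stress 1. They summed to 118 and 115 CPM in CAA mock and 116 to 144 CPM in WT. In each class the 2 CAA stress libraries were the 2 highest of the 8. CAA mock 1 held the lowest CPM of 12 members (29.3%). The share of all genes lowest in that library was not computed, so this count has no reference. Results below are given with and without CAA stress 2 where it decides them. Without it the CAA stress group is CAA stress 1 alone, a library rich in choroid plexus markers and female by Xist.

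**Figure D1:**
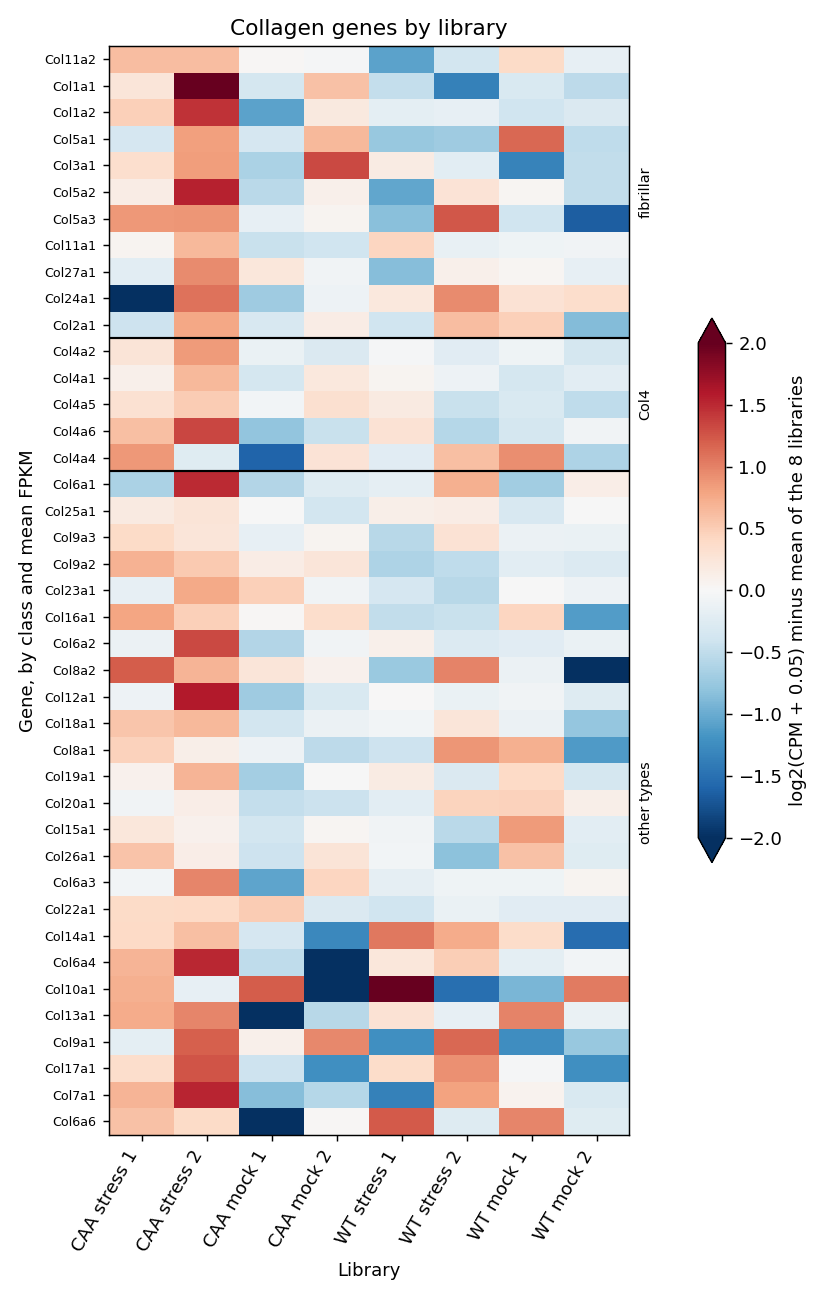
Each row is a collagen gene and each column a library; colour gives log2(CPM + 0.05) minus the gene's mean over the 8 libraries, from lower (blue) to higher (red), clipped at 2. Lines separate the 11 fibrillar, 5 Col4 and 25 other genes, ordered by mean FPKM; the CAA stress 2 column is the highest for 24 of 41 genes.

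Markers of other cells moved with the collagens in part. The 12 fibroblast and meningeal markers had a median centred log2 level of 0.75 in CAA stress 2 and 0.41 in CAA mock 2, against -0.54 to 0.11 in the other 6 libraries. Their summed level was 69.8 and 105 CPM in CAA stress, 66.5 and 118 CPM in CAA mock, 86.6 and 61.2 CPM in WT stress, and 67.5 and 54.5 CPM in WT mock. CAA stress 2 held the highest level of 7 of the 12, among them Fmod, a small fibril-binding proteoglycan (28.6 CPM, against 5.61 to 14.6 CPM elsewhere), and Cdh1, a cadherin of the arachnoid (7.23 CPM, against 0.505 to 2.53 CPM elsewhere). Dcn, decorin, went another way, with 14.6 CPM in CAA stress 2 and 53.6 CPM in CAA mock 2. Mural and endothelial markers were not raised in CAA stress 2: their medians there were -0.16 and -0.39. The part of meningeal tissue in the collagen levels was not tested. Mitochondrial genes took 6.10% of counts in CAA stress 2 and 7.89% to 9.99% in the other 7 libraries.

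**Figure D2:**
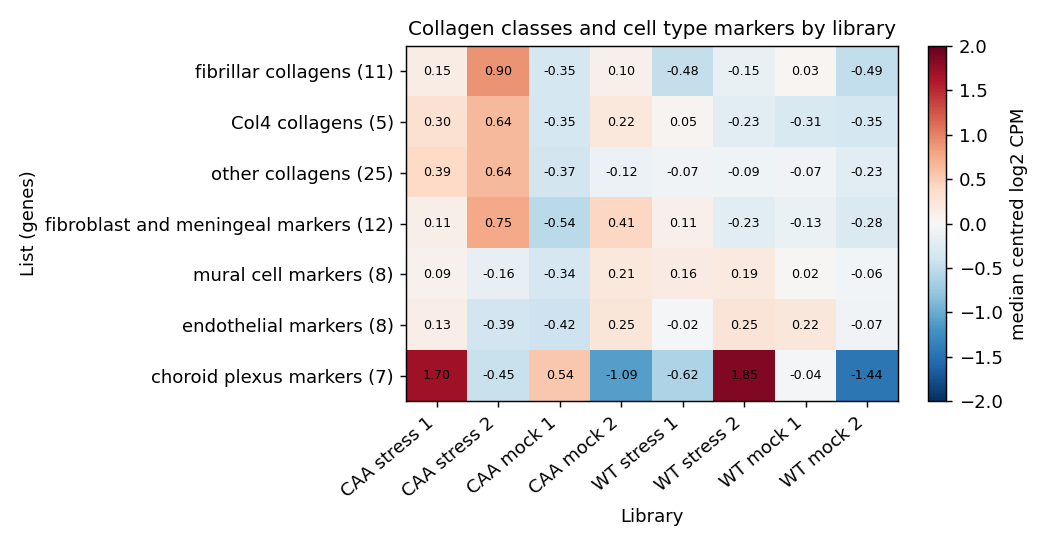
Rows are the 3 collagen classes and 4 lists of cell type markers with their number of genes, columns are libraries, and each cell prints the median of the genes' log2 CPM after centring each gene on its mean over the 8 libraries. CAA stress 2 is highest for the fibrillar (0.90), Col4 (0.64), other (0.64) and fibroblast and meningeal (0.75) rows, and lies below 0 in the mural, endothelial and choroid plexus rows.

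Averaged over mock and stress, 29 of the 41 collagens had a positive log2 fold change of CAA over WT and 12 a negative one, while 50.2% of all genes tested were positive. The median log2 fold change was 0.33 over the collagens and 0.00 over all genes. By class it was 0.58 for the 11 fibrillar genes (9 positive), 0.35 for the 5 Col4 genes (4 positive) and 0.23 for the 25 others (16 positive). edgeR's quasi-likelihood test with Benjamini-Hochberg adjustment over all genes called 0 collagens, and 0.0116% of all genes tested. At an unadjusted p under 0.05 there were 7 collagens, all positive, against 8.38% of all genes (4.25% positive). DESeq2 called 1 collagen, Col1a1, and 0.284% of the genes it adjusted. Without CAA stress 2 the collagen median was 0.05 and 22 of 41 genes were positive. Markers moved with genotype too: medians were 0.43 for fibroblasts and meninges (11 of 12 positive), 0.29 for oligodendrocyte precursors (3 of 3) and -2.04 for the olfactory bulb (0 of 4). In these lists 0 were called in edgeR or DESeq2. The 4 markers of brain tissue as a whole, Gfap among them, had a median of 0.32 (3 of 4 positive). Of the brain tissue markers edgeR called 0 and DESeq2 called Gfap (log2 fold change 0.86, DESeq2 adjusted p = 0.00502). Their part in the collagen values was not tested.

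Col9a2, the alpha-2 chain of type IX collagen, was the only 1 of the 41 members whose genotypes did not overlap. On chromosome 4 from 121039385 to 121055322, it lay at 9.10 and 8.04 CPM in CAA stress and 6.19 and 6.59 CPM in CAA mock, against 3.61 and 3.91 CPM in WT stress and 4.84 and 4.60 CPM in WT mock. All 4 CAA libraries were above all 4 WT libraries, and of all genes tested 4.77% had genotypes that did not overlap, 2% with CAA above. The log2 fold change was 0.81 ± 0.18 (SE, n = 4 each; edgeR unadjusted p = 0.00093, edgeR adjusted p = 0.508), and with any 1 library left out it stayed between 0.77 and 0.85. It did not pass the threshold under any setting tried. Its partner Col9a3 lay at 10.03 and 9.05 CPM in CAA stress and 6.83 and 7.94 CPM in CAA mock, against 5.20 and 9.37 CPM in WT stress and 7.10 and 7.02 CPM in WT mock. The Col9a3 genotypes overlapped (log2 fold change 0.23, edgeR adjusted p = 0.767), and 234 of its 3853 exon bases also belong to Tcfl5 on the other strand. The strand setting of the counting is not stated, so reads in shared exon bases cannot be told apart here or below. The ratio of Col9a2 to Col9a3 in FPKM was 1.13 and 1.10 in CAA stress and 1.13 and 1.03 in CAA mock, against 0.865 and 0.520 in WT stress and 0.849 and 0.817 in WT mock. Every CAA ratio was above every WT ratio; this ratio was looked at after the levels were seen and has no test.

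Col1a1 and Col1a2 encode the chains of type I collagen, the main fibril protein of connective tissue. Col1a1, on chromosome 11 of mm10 from 94936224 to 94953042, lay at 7.31 and 28.1 CPM in CAA stress and 4.79 and 9.24 CPM in CAA mock, against 4.38 and 2.37 CPM in WT stress and 4.95 and 4.27 CPM in WT mock. CAA averaged 12.4 ± 10.7 CPM and WT 3.99 ± 1.12 CPM (SD, n = 4 each), and the genotypes overlapped by 1 CAA library, CAA mock 1. The log2 fold change was 1.498 ± 0.46 (SE; edgeR adjusted p = 0.545, DESeq2 adjusted p = 0.0145). Without CAA stress 2 it was 0.86. Col1a2, on chromosome 6 from 4504814 to 4541544, lay at 17.4 and 34.0 CPM in CAA stress and 5.90 and 14.3 CPM in CAA mock, against 10.8 and 11.1 CPM in WT stress and 9.41 and 10.2 CPM in WT mock. Here 3 CAA libraries were above all WT libraries and CAA mock 1 was below them. Its log2 fold change was 0.63 (edgeR adjusted p = 0.602), with 0.35 without CAA stress 2 and 0.25 without CAA mock 2. The ratio of Col1a1 to Col1a2 in FPKM ran from 0.795 to 1.56 in CAA and from 0.403 to 0.995 in WT.

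Col3a1, a thinner-fibril partner of type I collagen and a ligand of the adhesion receptor Adgrg1 in the developing pial surface, had another highest library than Col1a1. It lay at 2.999 and 4.29 CPM in CAA stress and 1.52 and 6.03 CPM in CAA mock, against 2.68 and 2.04 CPM in WT stress and 0.915 and 1.68 CPM in WT mock. Its highest library was CAA mock 2, which was also high in Dcn, and the genotypes overlapped. The log2 fold change was 1.08 ± 0.41 (SE; edgeR adjusted p = 0.578), and 0.43 without CAA mock 2; its exons share 141 bases with Gm47302 on the same strand. Col5a1, which encodes a chain of the type V collagen that nucleates fibrils, lay at 3.11 and 6.96 CPM in CAA stress and 3.10 and 6.20 CPM in CAA mock, against 2.30 and 2.37 CPM in WT stress and 8.77 and 2.75 CPM in WT mock. Its highest library was WT mock 1, which was low in striatal markers, and its log2 fold change was 0.40 (edgeR adjusted p = 0.800), or 0.05 without CAA stress 2. Its exons share 99 bases with 2810430I11Rik and 113 with Gm13372, both on the other strand. Among the 5 most abundant fibrillar genes CAA stress 2 was the highest library of 3, CAA mock 2 of 1 and WT mock 1 of 1.

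Col11a2 encodes a chain of the minor fibrillar type XI collagen, known best from cartilage and the inner ear. On chromosome 17 from 34039437 to 34066685, it lay at 13.7 and 13.8 CPM in CAA stress and 9.05 and 8.73 CPM in CAA mock, against 4.21 and 6.89 CPM in WT stress and 11.7 and 7.92 CPM in WT mock. The 2 CAA stress libraries were nearly equal and were the highest of the 8, and the 2 WT stress libraries were the lowest. CAA averaged 11.3 ± 2.79 CPM and WT 7.67 ± 3.09 CPM (SD, n = 4 each; log2 fold change 0.58 ± 0.20 SE, edgeR adjusted p = 0.545). Its partner Col11a1 lay at 3.33 and 5.04 CPM in CAA stress and 2.34 and 2.42 CPM in CAA mock, against 4.32 and 2.87 CPM in WT stress and 3.01 and 3.03 CPM in WT mock, so that the 2 chains did not share an order of libraries.

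Col16a1, of the fibril-coating type XVI, lay at 10.5 and 8.41 CPM in CAA stress and 6.13 and 7.72 CPM in CAA mock, against 4.27 and 4.41 CPM in WT stress and 8.12 and 2.75 CPM in WT mock (log2 fold change 0.73 ± 0.29 SE, edgeR adjusted p = 0.586). WT mock 1 lay among the CAA libraries, and without it the log2 fold change was 1.22; without WT mock 2 it was 0.44. Col23a1, a transmembrane collagen, lay at 7.91 and 14.9 CPM in CAA stress and 12.3 and 8.39 CPM in CAA mock, against 6.95 and 6.01 CPM in WT stress and 8.77 and 8.25 CPM in WT mock. Its log2 fold change of 0.55 (edgeR adjusted p = 0.586) was 0.28 without CAA stress 2. Col25a1, the gene of the plaque-associated collagen, lay at 52.6 and 55.6 CPM in CAA stress and 46.0 and 36.2 CPM in CAA mock, against 50.6 and 51.5 CPM in WT stress and 37.2 and 46.3 CPM in WT mock. CAA averaged 47.6 ± 8.58 CPM and WT 46.4 ± 6.53 CPM (SD, n = 4 each), and its log2 fold change of 0.03 changed sign with some libraries left out (edgeR adjusted p = 0.958). Oligodendrocyte precursor markers (Pdgfra, Cspg4 and Olig1) summed to 432 and 283 CPM in CAA stress and 423 and 408 CPM in CAA mock, against 258 and 271 CPM in WT stress and 308 and 300 CPM in WT mock; their part in these collagen levels was not tested.

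**Figure D3:**
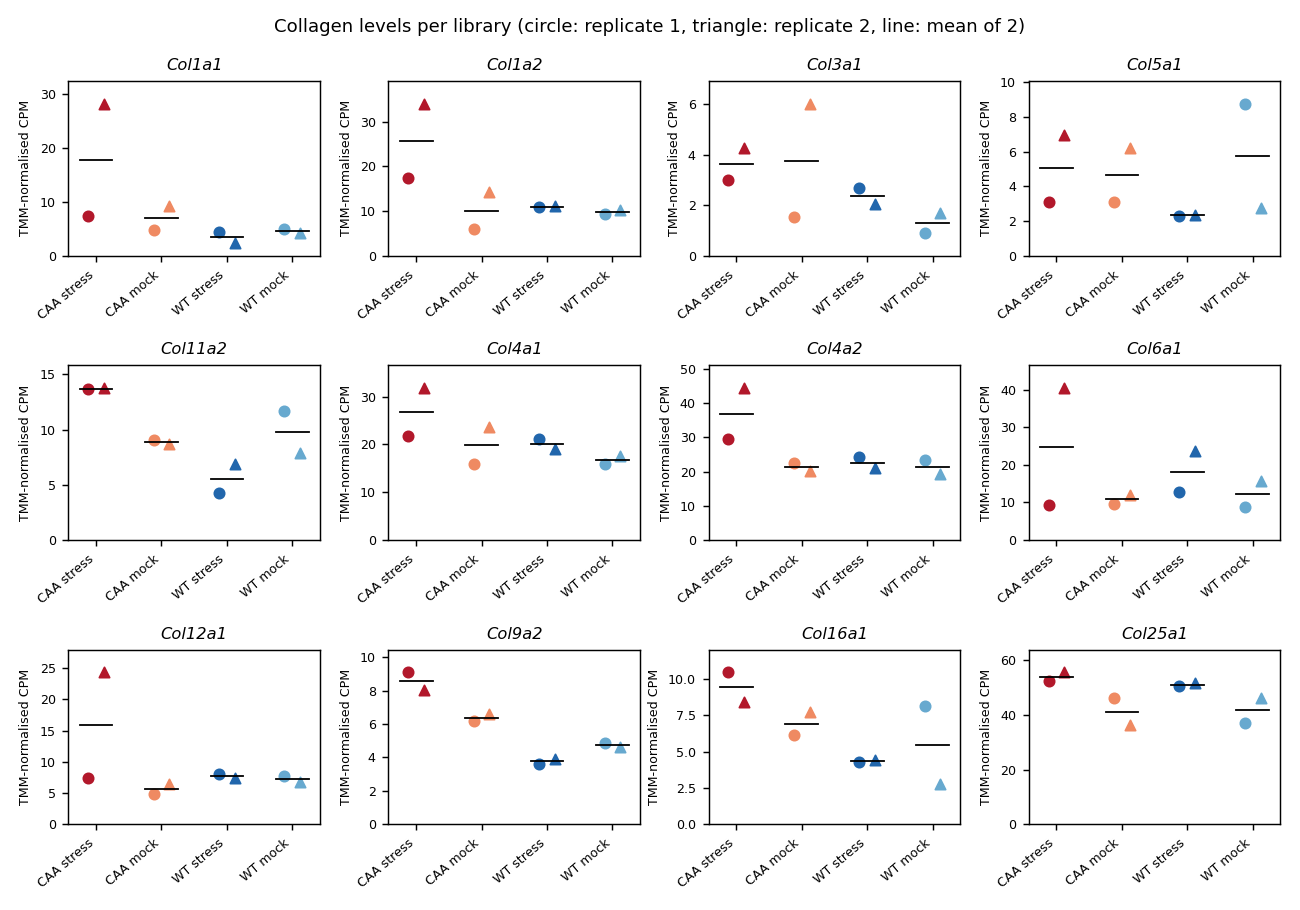
TMM-normalised CPM of 12 collagen genes in each library, by group (circle: replicate 1, triangle: replicate 2, line: mean of the 2), with axes from 0. Col1a1, Col1a2, Col6a1 and Col12a1 are high in CAA stress 2, at 28.1, 34.0, 40.5 and 24.3 CPM, while the 4 CAA values of Col9a2 all lie above its 4 WT values.

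Within mock-treated mice 16 of 41 collagens were positive for CAA over WT, the median log2 fold change was -0.12, and all genes tested had 50.7% positive. The direction rested on 1 library: without WT mock 1, which is also 1 of the 2 female libraries, 26 of 41 were positive and the median was 0.17. Of the collagens 0 passed in edgeR (0.0116% of all genes did) and 0 in DESeq2 (0.141%), with 2 at an unadjusted p under 0.05 (4% of all genes). These were Col3a1 (log2 fold change 1.54 ± 0.60 SE, edgeR adjusted p = 0.998) and Col13a1, a transmembrane collagen of cell adhesion sites. Col13a1 had 1 and 5 counts in CAA mock, against 17 and 7 counts in WT mock, and its log2 fold change of -1.89 ± 0.86 (SE) rests on these few counts (edgeR adjusted p = 0.998). The Col3a1 value was 0.23 without CAA mock 2, and it turned to -0.15 without the 2 libraries low in striatal markers. Marker medians here were 0.15 for fibroblasts and meninges (10 of 12 positive) and 0.17 for oligodendrocyte precursors (3 of 3). They were 0.33 for choroid plexus (5 of 7), -0.44 for striatum (0 of 6) and -2.97 for olfactory bulb (0 of 4). Of these markers edgeR called 0 and DESeq2 called Dcn (log2 fold change 1.45, DESeq2 adjusted p = 0.0063). Their part in the collagen values was not tested.

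Under stress 35 of the 41 collagens were positive for CAA over WT, against 50.7% of all genes, with a median log2 fold change of 0.61. The class medians were 0.79 for fibrillar (10 of 11 positive), 0.51 for Col4 (5 of 5) and 0.51 for other genes (20 of 25). Both CAA stress libraries were above both WT stress libraries for 20 members and below for 1, while 39.8% of all genes had groups that did not overlap, 19.5% with CAA above. None passed in edgeR (0 of 41, against 0.0116% of all genes), 10 had an unadjusted p under 0.05, all positive (8.22% of all genes, 4.14% positive), and DESeq2 called Col1a1 alone (0.0834% of genes). Smallest in p were Col9a2, with a log2 fold change of 1.19 ± 0.26, and Col11a2, with 1.30 ± 0.29 (SE, n = 2 each; both edgeR adjusted p = 0.579). Col1a1 had 2.39 ± 0.67 (SE; edgeR adjusted p = 0.579, DESeq2 adjusted p = 0.00503). Leaving out CAA stress 2 keeps CAA stress 1 alone in its group. The collagen median was then 0.33 with 29 of 41 positive, while Col9a2 stood at 1.27 and Col11a2 at 1.29. Marker medians were 0.45 for fibroblasts and meninges (10 of 12 positive), 0.42 for oligodendrocyte precursors (3 of 3), -0.28 for endothelium (1 of 8), -0.26 for choroid plexus (1 of 7) and -1.37 for olfactory bulb (0 of 4), with 0 called in edgeR or DESeq2. Their part in the collagen values was not tested.

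Averaged over genotypes, 36 of the 41 collagens had a positive log2 fold change of stress over mock, against 50.6% of all genes, and the median was 0.44 against 0.00 for all genes. Without Col17a1 and Col7a1, which met the count limit through stress libraries alone, it was 34 of 39 with the same median of 0.44. By class the medians were 0.44 (fibrillar, 9 of 11 positive), 0.36 (Col4, 5 of 5) and 0.53 (other, 22 of 25). In edgeR 0 collagens passed, as did 0% of all genes, and DESeq2 called 0 collagens (0.0175% of all genes). An unadjusted p under 0.05 was reached by 10 collagens, all positive, against 3.82% of all genes (2.04% positive). Without Col17a1 and Col7a1 it was reached by 9 of 39. All stress libraries were above all mock libraries for 5 members, Col25a1, Col18a1, Col6a4, Col14a1 and Col17a1, and below for 0; of all genes 1.83% did not overlap, 0.960% with stress above. For Col17a1 the count limit favours this order, which leaves 4 members. Without CAA stress 2, 31 of 41 were positive, with a median of 0.25 that was -0.06 for the fibrillar genes and 0.28 for Col4. Markers moved with stress too. The median log2 fold change was 0.43 for fibroblasts and meninges (11 of 12 positive), 1.43 for choroid plexus (6 of 7), 0.66 for striatum (6 of 6) and 1.59 for olfactory bulb (4 of 4), with 0 called in edgeR or DESeq2. Their part in the collagen values was not tested.

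Among these 5, Col25a1 was the abundant one. Stress libraries lay at 50.6 to 55.6 CPM and mock libraries at 36.2 to 46.3 CPM, or 52.6 ± 2.18 and 41.4 ± 5.45 CPM (SD, n = 4 each). CAA mock 2 (36.2 CPM) and WT mock 1 (37.2 CPM), the libraries low in striatal markers, were the lowest. CAA mock 1 and WT mock 2 lay at 46.0 and 46.3 CPM, and the part of striatal tissue in this gap was not tested. The log2 fold change of 0.34 ± 0.12 (SE; edgeR unadjusted p = 0.0174, edgeR adjusted p = 0.920) lay between 0.26 and 0.43 with any 1 library left out. Col18a1, which encodes the basement membrane collagen that yields endostatin, lay at 4.91 and 5.20 CPM in CAA stress against 2.57 and 3.04 CPM in CAA mock, and at 3.17 and 3.91 CPM in WT stress against 3.07 and 1.91 CPM in WT mock (0.68 ± 0.25 SE, edgeR adjusted p = 0.920). Col6a4, a type VI chain, had 28 and 51 counts in CAA stress against 11 and 3 in CAA mock, and 20 and 24 counts in WT stress against 15 and 16 in WT mock. Its log2 fold change was 1.44 ± 0.45 (SE; edgeR unadjusted p = 0.00794, edgeR adjusted p = 0.920). The exons of Col6a4 share 127 bases with Gm36993 and 162 with Gm47575, both on the other strand. Col14a1 and Col17a1 had at most 35 and 16 counts in a library.

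**Figure D4:**
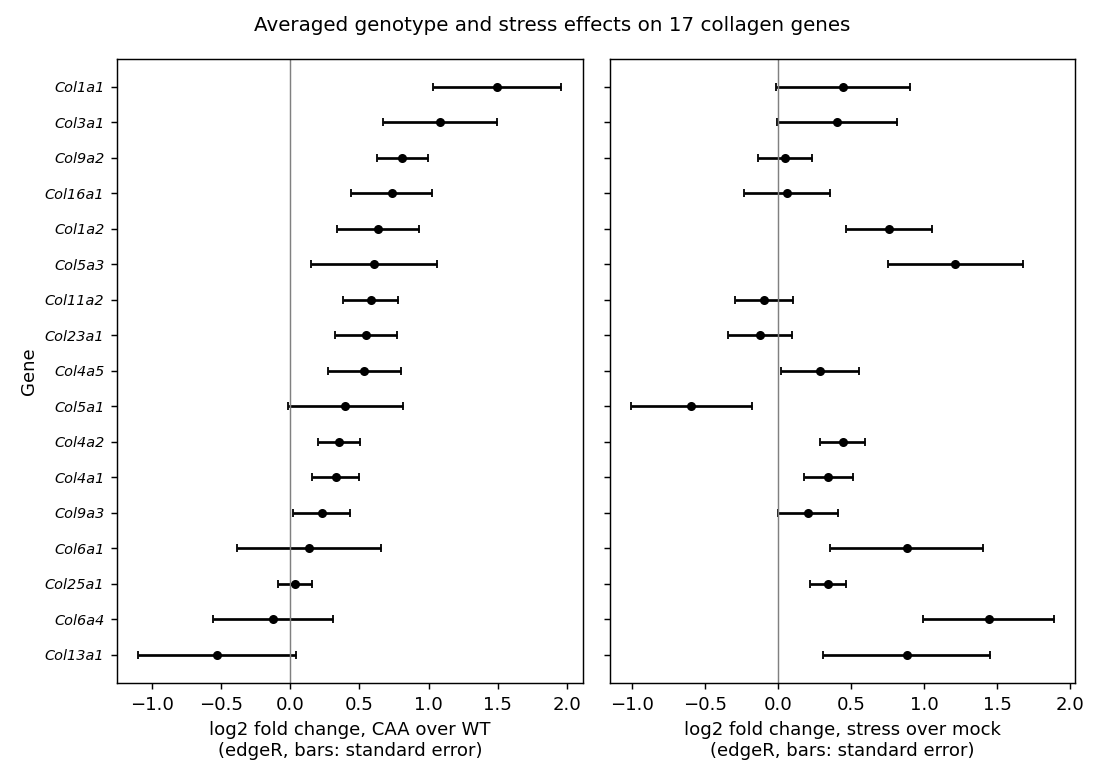
Points give the edgeR log2 fold change of CAA over WT (left) and of stress over mock (right), each averaged over the other factor, for the 17 named collagens; bars are standard errors and the line marks 0. Col1a1 (1.498), Col3a1 (1.08) and Col9a2 (0.81) lie farthest right for CAA, and Col6a4 (1.44) and Col5a3 (1.21) for stress; no gene passed the adjusted threshold in edgeR.

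Col4a1 and Col4a2 encode the chains of the main basement membrane trimer. Col4a2, on chromosome 8 from 11312805 to 11449287, lay at 29.5 and 44.5 CPM in CAA stress and 22.4 and 20.1 CPM in CAA mock, against 24.3 and 20.9 CPM in WT stress and 23.3 and 19.3 CPM in WT mock. Its CAA stress libraries were the 2 highest of the 8, and the other 6 spanned 19.3 to 24.3 CPM. Stress over mock was 0.80 ± 0.22 on the log2 scale in CAA (SE, n = 2 each; edgeR adjusted p = 0.696), 0.47 without CAA stress 2, and 0.09 in WT. Col4a1, from 11198423 to 11312826, lay at 21.8 and 31.8 CPM in CAA stress and 15.9 and 23.7 CPM in CAA mock, against 21.1 and 19.0 CPM in WT stress and 16.0 and 17.6 CPM in WT mock. Here CAA mock 2 lay above CAA stress 1, so the CAA groups overlapped. The ratio of Col4a1 to Col4a2 in FPKM lay between 0.608 and 0.809 in 7 libraries and at 1.04 in CAA mock 2. Of the chains of the minor type IV trimers, Col4a5 lay at 3.38 and 3.91 CPM in CAA stress and 2.63 and 3.44 CPM in CAA mock, against 3.12 and 1.98 CPM in WT stress and 2.21 and 1.91 CPM in WT mock. Col4a6 had 35 and 60 counts in CAA stress, against 12 to 28 counts in the other 6 libraries, and Col4a4 had 2 to 17 counts overall. Of the cells known to make type IV collagen, endothelial markers had a median log2 fold change of -0.07 for stress in CAA (3 of 8 positive) and -0.20 for CAA averaged (0 of 8). Mural markers had -0.12 for stress in CAA (3 of 8) and -0.04 for CAA averaged (4 of 8), with 0 called in edgeR or DESeq2 in either list. Fibroblast and meningeal markers had 0.30 for stress in CAA (10 of 12) and 0.43 for CAA averaged (11 of 12). The part of any of these cells in the Col4 levels was not tested.

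Within CAA mice 40 of 41 collagens were positive for stress over mock, against 51.4% of all genes, with a median log2 fold change of 0.69. The medians were 0.66 for fibrillar (10 of 11 positive), 0.80 for Col4 (5 of 5) and 0.69 for other genes (25 of 25). For 24 members both CAA stress libraries were above both CAA mock libraries and for 0 below; of all genes 37.3% did not overlap, 18.3% with stress above. Without Col17a1 and Col7a1 38 of 39 were positive and 22 did not overlap. None passed in edgeR (0 of 41, and 0% of all genes) or in DESeq2 (0.0831% of genes). An unadjusted p under 0.05 was reached by 12, all positive, against 6.94% of all genes (3.68% positive). Without Col17a1 and Col7a1 it was reached by 11 of 39. Without CAA stress 2, 33 of 41 were positive, the median was 0.44, and the fibrillar median was 0.06. The Col4 median without it was 0.47 and that of the other genes 0.44. Marker medians in this comparison were 0.30 for fibroblasts and meninges (10 of 12 positive), 0.88 for choroid plexus (6 of 7), 0.75 for striatum (6 of 6) and 2.72 for olfactory bulb (4 of 4). Of these markers edgeR called 0 and DESeq2 called Dcn, which fell (log2 fold change -1.60, DESeq2 adjusted p = 0.00197). The markers' part in the collagen values was not tested. In WT mice 25 of 41 were positive (49.6% of all genes), the median was 0.14 (it turned to -0.07 without WT stress 2 and to -0.08 without the choroid-rich libraries), 0 passed in edgeR (0% of all genes) or DESeq2 (0%), and 2 had an unadjusted p under 0.05 (1.59% of all genes, 0.873% positive). These were Col11a2 (log2 fold change -0.82 ± 0.29 SE) and Col5a3 (1.48 ± 0.67 SE), both with edgeR adjusted p = 1. With 1 library left out Col5a3 ran from 0.051 (without WT stress 2) to 2.29 (without WT mock 1), and Col11a2 from -1.22 (without WT stress 2) to -0.51 (without WT stress 1).

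Col6a1, the second most abundant collagen, differed most between the 2 CAA stress libraries among the members of at least 1 FPKM. It lay at 9.21 and 40.5 CPM in CAA stress and 9.58 and 12.1 CPM in CAA mock, against 12.6 and 23.6 CPM in WT stress and 8.88 and 15.8 CPM in WT mock. The 2 CAA stress libraries were near the lowest and the highest of the 8. The log2 fold change of CAA over WT was 0.13 (edgeR adjusted p = 0.958) and turned to -0.59 without CAA stress 2. Its partners Col6a2 and Col6a3 also peaked there, at 15.1 CPM against 3.97 to 6.46 CPM elsewhere and at 3.96 CPM against 0.934 to 2.70 CPM elsewhere. Col12a1, of the fibril-coating type XII, lay at 24.3 CPM in CAA stress 2 against 4.91 to 8.05 CPM in the other 7 libraries; it was singled out after its values were seen. Col5a3 followed other libraries, with 3.64 CPM in WT stress 2 and 2.78 and 2.84 CPM in CAA stress, against 0.449 to 1.58 CPM in the rest. Col8a2, a short-chain collagen, was highest in the 2 libraries rich in choroid plexus markers, at 5.23 CPM in CAA stress 1 and 4.46 CPM in WT stress 2, against 0.393 to 3.59 CPM elsewhere; this gene too was singled out after its values were seen, and the part of choroid plexus was not tested.

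The stress effect was then compared between genotypes by the interaction, the stress effect in CAA minus that in WT. The interaction was positive for 35 of 41 collagens, against 50.4% of all genes, with a median of 0.65 on the log2 scale, or 0.29 without CAA stress 2 (27 of 41). In edgeR 0 collagens passed (0% of all genes) and in DESeq2 0 (0.0233%), and 3 had an unadjusted p under 0.05 (3.46% of all genes). These were Col11a2 (1.45 ± 0.40 SE, n = 2 in each of 4 groups; edgeR unadjusted p = 0.00393, edgeR adjusted p = 0.995), Col13a1 (2.73 ± 1.14 SE) and Col4a2 (0.71 ± 0.31 SE). For Col11a2 the stress libraries were above the mock libraries in CAA and below them in WT, and with any 1 library left out the interaction lay between 1.13 and 1.84. The comparisons share libraries: the CAA stress libraries enter most of them, so their collagen medians are not separate evidence.

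**Figure D5:**
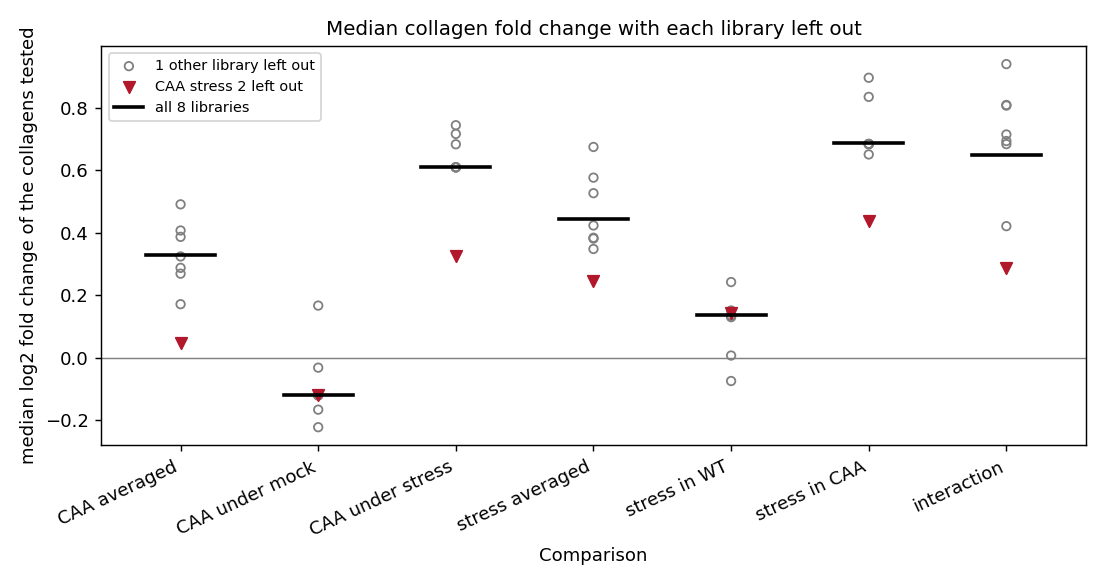
Vertical position gives the median log2 fold change of the 41 collagens in each of the 7 comparisons, with all 8 libraries (bar), with CAA stress 2 left out (triangle) and with 1 of the other 7 left out (open circles). Leaving out CAA stress 2 gives the lowest value in 5 comparisons, for example 0.05 against 0.33 for CAA averaged.

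Genes that build, process and bind collagen were followed as 5 lists. Of 15 enzymes that hydroxylate or glycosylate collagen chains, 0 passed in edgeR in either averaged comparison, and the medians were 0.13 for CAA and -0.05 for stress. P3h4, a component of the complex that modifies chains in the endoplasmic reticulum, had 0.44 ± 0.16 (SE) for CAA. Of 12 folding and secretion genes 0 passed, with medians of 0.04 and -0.02. Serpinh1, the collagen chaperone Hsp47, lay at 13.5 to 17.7 CPM in all 8 libraries and at 16.2 CPM in CAA stress 2. Of 15 processing and crosslinking genes 13 were tested and 0 passed in edgeR (medians 0.10 and 0.21; over all genes 0.0116% passed for CAA averaged and 0% for stress averaged). Adamts2, the procollagen N-proteinase, had a log2 fold change of CAA over WT of 0.99 ± 0.18 (SE; edgeR unadjusted p = 0.000203, edgeR adjusted p = 0.309). It was the 1 gene of this list that DESeq2 called (DESeq2 adjusted p = 0.00553), against 0.284% of all genes. Of 11 receptors 9 were tested and 0 passed in edgeR (medians 0.01 and 0.21). Ddr1, a collagen-binding receptor kinase, had 0.43 ± 0.15 (SE) for CAA and Mrc2, an endocytic collagen receptor, 1.02 ± 0.33 (SE) for stress. Mrc2 lay at 22.7 CPM in CAA stress 2, against 3.26 to 8.94 CPM in the other libraries. DESeq2 called Mrc2 for stress in CAA (log2 fold change 1.93, DESeq2 adjusted p = 0.0314), against 0.0831% of genes. Of 10 fibril-associated proteoglycans and glycoproteins 0 passed (medians 0.32 and 0.33). Among them Dcn had 0.68 ± 0.22 for CAA and -0.83 ± 0.22 for stress (SE; edgeR adjusted p = 0.537 and 0.920).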

How the data were processed

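RNA of mouse brains was sequenced in 8 libraries. Per the submitters' processing notes, reads were processed with HISAT2 2.0.5 and featureCounts 1.5.0-p3 on mm10; not given in the sources used here are the parameters, the strand setting and the annotation. The deposited counts are raw reads per gene. The deposited FPKM values divide those counts by gene length and by library denominators equal to DESeq2's robust library sizes (ratio 1); FPKM was used for levels between genes. All 44 collagen rows were matched by gene identifier to GENCODE vM21.

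The test was edgeR (4.0.16, under R 4.3.3), with filterByExpr (minimum count 10, minimum total 15; 17182 genes), TMM scaling and a robust quasi-likelihood fit of the 4 group means over all 8 libraries, with two-sided p-values adjusted by Benjamini-Hochberg over all genes tested and a threshold of 0.05. All 41 members were in the test. CPM values are TMM-normalised. An exact permutation test of 2 libraries against 2 cannot go below p = 0.333, so none is given. DESeq2 1.42.0 and limma 3.58.1 were alternatives. The tests were also run on counts simulated from the means and spreads fitted to these data. The main fit did not pair libraries by replicate number, and whether these numbers mark pairs is not known. No count lacked a gene name.

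The members, lists and alternatives were chosen with earlier results of these data known. Named are the 5 fibrillar, 3 Col4 and 6 other members of highest mean FPKM, any past the threshold, the 2 of smallest p in each comparison and partner chains; from each list, members past the threshold and the 2 of smallest p for CAA averaged and for stress averaged. Others were chosen after their values were seen.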

Additional observations from a re-analysis of the deposited data

Results flagged for a closer look

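Sets of 4 libraries (CAA, WT, stress and mock) were examined for 1 library far from the other 3, for the 17 named collagens and the 3 class sums. Of 80 sets 5 were flagged (6.25%), and chance alone flags about 1 in 20. The sets of a gene share libraries and mix 2 groups. Col1a1 lay at 9.24 CPM in CAA mock 2, against 4.27 to 4.95 CPM in the other 3 mock libraries. Col3a1 lay at 6.03 CPM in CAA mock 2, against 0.915 to 1.68 CPM in the other mock libraries. Col5a1 lay at 8.77 CPM in WT mock 1, against 2.30 to 2.75 CPM in the other 3 WT libraries. CAA mock 2 and WT mock 1 are the libraries low in striatal markers. Col6a1 lay at 40.5 CPM in CAA stress 2, against 9.21 to 12.1 CPM in the other 3 CAA libraries. Col23a1 lay at 12.3 CPM in CAA mock 1, against 8.25 to 8.77 CPM in the other mock libraries.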

How the results depend on the processing

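In edgeR and with all 8 libraries 0 collagens passed in each of the 7 comparisons, and this held with DESeq2's size factors, limma on either FPKM scale, the libraries compared alone and each library left out. It also held with the replicate number as a block (0 collagens in each comparison); deviations of same-numbered libraries had correlations of -0.27 to 0.17, and with the numbers of WT mock crossed the count was 0 for CAA under mock and for stress in WT. DESeq2 called 1 collagen for CAA averaged and 1 for CAA under stress, Col1a1 in each. Without the female libraries CAA stress 2 alone stood for CAA stress, and Col12a1 had a log2 fold change of 2.10 for stress in CAA. With no filter on low counts edgeR's prior degrees of freedom became infinite, against 7.29, and 2 collagens passed for CAA averaged (Col1a1 and Col1a2), 1 for stress averaged (Col1a2), 4 for CAA under stress (Col1a1, Col1a2, Col11a2 and Col12a1) and 3 for stress in CAA (Col4a2, Col1a2 and Col12a1), while 0.757%, 0.166%, 0.408% and 0.38% of all genes passed there.

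The collagen median moved by more than the spread between replicates (0.20) as follows. limma on log2(FPKM + 1), which shrinks low genes by its construction, gave 0.074 for CAA averaged, 0.081 for stress averaged, 0.15 for CAA under stress, 0.18 for stress in CAA and 0.14 for the interaction; on log2(FPKM + 0.1) the last 2 were 0.47 and 0.43. Without the female libraries it was 0.55 for CAA averaged, 0.67 for stress averaged, 0.17 for CAA under mock and 0.90 for stress in CAA. Without the low-striatum libraries it was 0.72 for stress averaged. Without the choroid-rich libraries it was 0.98 for CAA under stress, -0.084 for stress in WT, 0.90 for stress in CAA and 0.92 for the interaction. Both the female and the choroid-rich fits keep CAA stress 2 as the only CAA stress library. Without CAA stress 1 only, the collagen median for stress in CAA was also 0.90. With each library left out in turn it ran from 0.048 to 0.49 for CAA averaged, 0.25 to 0.68 for stress averaged, -0.22 to 0.17 for CAA under mock, 0.33 to 0.75 for CAA under stress, -0.07 to 0.24 for stress in WT, 0.44 to 0.90 for stress in CAA and 0.29 to 0.94 for the interaction. The lowest value came without CAA stress 2 in 5 of these, without WT mock 2 for CAA under mock and without WT stress 2 for stress in WT. The cause was not tested.

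Of 755 alternative values for 44 gene results, 716 kept their sign and side of the threshold, 6 passed it and 33 changed sign. Without the low-striatum libraries Col6a1 for CAA averaged was -0.13, Col6a4 0.17, Col11a2 for stress averaged 0.043, Col5a1 for stress averaged 0.23 and Col3a1 for CAA under mock -0.15. Without the female libraries Col25a1 for CAA averaged was -0.016, Col6a4 0.023, and for stress averaged Col11a2 was 0.063, Col5a1 0.18 and Col23a1 0.095. Without the choroid-rich libraries Col6a4 for CAA averaged was 0.13, and for stress averaged Col9a3 was -0.074, Col9a2 -0.028, Col23a1 0.12 and Col16a1 -0.036. Col6a4 for CAA averaged was 0.028 and 0.021 in limma with a pseudocount of 1 and 0.1. With 1 library left out the sign changed for CAA averaged in Col6a1 (-0.59 to 0.49), Col25a1 (-0.061 to 0.11) and Col6a4 (-0.74 to 0.21), and for stress averaged in Col11a2 (-0.30 to 0.057), Col1a1 (-0.19 to 0.78), Col9a3 (-0.037 to 0.39), Col23a1 (-0.39 to 0.072) and Col16a1 (-0.23 to 0.55). The low counts of most members, and 2 libraries a group, limit what could pass.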
